A study of Mus musculus with 3 samples.

Results

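Fcer1g, Tyrobp, Hcst and Syk are the genes of a signaling module best known from myeloid and natural killer (NK) cells, and they were examined here in T cells taken from mouse melanomas. The members were 4 of the 33696 genes counted, and their values came from cells with at least 1 UMI of Cd3e, a chain of the T cell receptor complex, and fewer than 3 UMIs of Lyz2, the lysozyme of macrophages and neutrophils. A UMI is a tag that counts each captured RNA molecule once. These limits left 28890 of 30857 cells that passed quality control. The 4 genes were chosen with their levels, shares and granzyme coexpression in these libraries already known, so those values are descriptions.

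The transferred cells were pmel CD8+ T cells, which carry a transgenic T cell receptor against a melanoma antigen. They had been preconditioned with antigen peptide and cytokine, transferred into irradiated C57BL/6 mice bearing B16F10 melanoma and followed by cytokine injections in a low dose regimen, and tumors were taken 18 days after tumor injection. The cytokine was sIL-2 (an IL-2 variant with high affinity for IL-2Rβ), IL-2/21-Trikine (sIL-2 joined to a binder of IL-21Rα that cannot signal by itself) or sIL-2 + IL-21, and by the methods the mice of the last group received sIL-2 alone. Values from the 3 libraries are listed throughout with sIL-2 first, then IL-2/21-Trikine, then sIL-2 + IL-21, except where a treatment is named. Live Thy1.1+CD8+ cells were sorted into 1 library for each of the 3 treatments, and the number of mice behind a library was not given in the sources used here. With no replicates, no test between treatments was possible. The intervals below are exact 95% intervals of counting error only, and variation between mice or libraries cannot be told apart from treatment.

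Fcer1g (ENSMUSG00000058715) encodes the Fc receptor gamma chain, Tyrobp (ENSMUSG00000030579) encodes DAP12, and both are short membrane adaptors that pair with receptors lacking signaling tails. Each carries an immunoreceptor tyrosine-based activation motif (ITAM), the same kind of motif that the CD3 chains use. Phosphorylated ITAMs recruit the kinases Syk (ENSMUSG00000021457) or Zap70, of which Zap70 is the usual one in mature T cells. Hcst (ENSMUSG00000064109) encodes DAP10, which has no ITAM, carries a tyrosine motif that recruits phosphoinositide 3-kinase, and is the partner of NKG2D (Klrk1) in activated CD8+ T cells. Syk and the ITAM adaptors are abundant in macrophages and neutrophils, so a few such cells in a sort can supply their RNA.

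The motifs that set these adaptors apart are shown as coding sequence of the principal GENCODE M21 transcripts (GRCm38), 5′ to 3′. Capitals mark the tyrosine codons and the leucine or isoleucine codons of the ITAMs, and in Hcst the tyrosine and methionine codons. Cd3e is shown as an example of the CD3 chains, all of which carry ITAMs.
Fcer1g: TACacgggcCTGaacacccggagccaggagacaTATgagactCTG
Tyrobp: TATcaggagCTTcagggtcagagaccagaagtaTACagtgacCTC
Cd3e: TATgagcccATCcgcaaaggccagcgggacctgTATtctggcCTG
Hcst: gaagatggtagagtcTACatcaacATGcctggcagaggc

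The 3 ITAMs had the same form, with 7 codons between their pairs of marked codons, and in each of them an exon boundary followed the first 6 bases. The Fcer1g motif covered codons 65 to 79 of 86 and lay at chr1:171230067-171230072 in exon 4 and chr1:171229889-171229927 in exon 5, on the minus strand. The Tyrobp motif lay at chr7:30415670-30415675 in exon 4 and chr7:30417344-30417382 in exon 5, on the plus strand. The Hcst stretch ended at the last codon, 79, and lay mostly at chr7:30417809-30417846 in exon 4 on the minus strand, so Hcst and Tyrobp are neighbors read toward each other. In a search of the principal coding sequences of 21537 genes, in frame and on the coding strand only, 6.49% held an ITAM-like order of codons (a tyrosine codon, any 2 codons, a leucine or isoleucine codon, 6 to 12 codons, and the first part again). The shorter Hcst order, a tyrosine codon, any 2 codons and a methionine codon, was in 24.9% of genes. Syk held no match to the ITAM order, and Cd247 held 3.

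The libraries held 7513, 11952 and 9425 cells of this population, with median depths of 13300, 11239 and 14553 UMIs per cell. A further 1321 cells of the IL-2/21-Trikine library had no Cd3e UMI, against 238 and 366, and their median depth was 897 UMIs. Pairs of libraries shared 18 to 43 cell barcodes. All 11 T cell identity genes were detected in every library. The defining NK cell genes were scarce, with Ncr1, Klrb1c, Klra8 and Klra4 summing to between 4.25 and 8.60 CPM (UMIs of a gene per 1000000 UMIs), most of it Klrb1c. A longer NK list also held Eomes, Klra9, Gzma, Xcl1, Tyrobp and Fcer1g, and not all of these were scarce. Fcer1g was at 50.1 to 187.0 CPM, and Gzma at 909.4 CPM or more even in cells without an Fcer1g UMI. Summed levels of B cell genes were 11.3 to 32.0 CPM and of melanoma genes 2.11 to 8.22 CPM, those of dendritic and plasmacytoid genes 226 to 363 CPM, nearly all of it Bst2, which T cells also express, with Siglech at 0 in every library, and those of erythroid genes 69.0 CPM with sIL-2 and under 1 CPM in the others. Of 18 myeloid genes, Cst3 had a UMI in 59.0 to 73.7% of these cells, Cd68 in 5.87 to 13.0% and Itgam in 1.77 to 2.88%, and the other 15 summed to 5.57, 6.58 and 2.54 CPM.

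Fcer1g was present in a minority of T cells in each library and was lowest with IL-2/21-Trikine. Its level was 174.0 CPM (171.8 to 176.3) with sIL-2, 50.1 CPM (49.1 to 51.2) with IL-2/21-Trikine and 187.0 CPM (184.9 to 189.1) with sIL-2 + IL-21. The IL-2/21-Trikine library was 0.288-fold of the sIL-2 library, a log2 ratio of -1.80 (-1.83 to -1.76), and against sIL-2 + IL-21 it was 0.268-fold. The log2 ratio of sIL-2 + IL-21 over sIL-2 was 0.10 (0.08 to 0.13) in summed UMIs, but 0.42 with each cell weighted equally and 0.70 in cells without a UMI of 18 myeloid genes.

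The share of Fcer1g-positive cells had the same order. A UMI of Fcer1g was seen in 28.7%, 12.6% and 37.0% of cells. After every cell was thinned to 2000 UMIs to equalize depth, the shares were 12.8% (12.1 to 13.6), 5.12% (4.72 to 5.55) and 17.0% (16.3 to 17.8). No class of cells that should lack the gene was large enough to give a background share, since only 8 barcodes rich in melanoma genes were found.

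**Figure D1:**
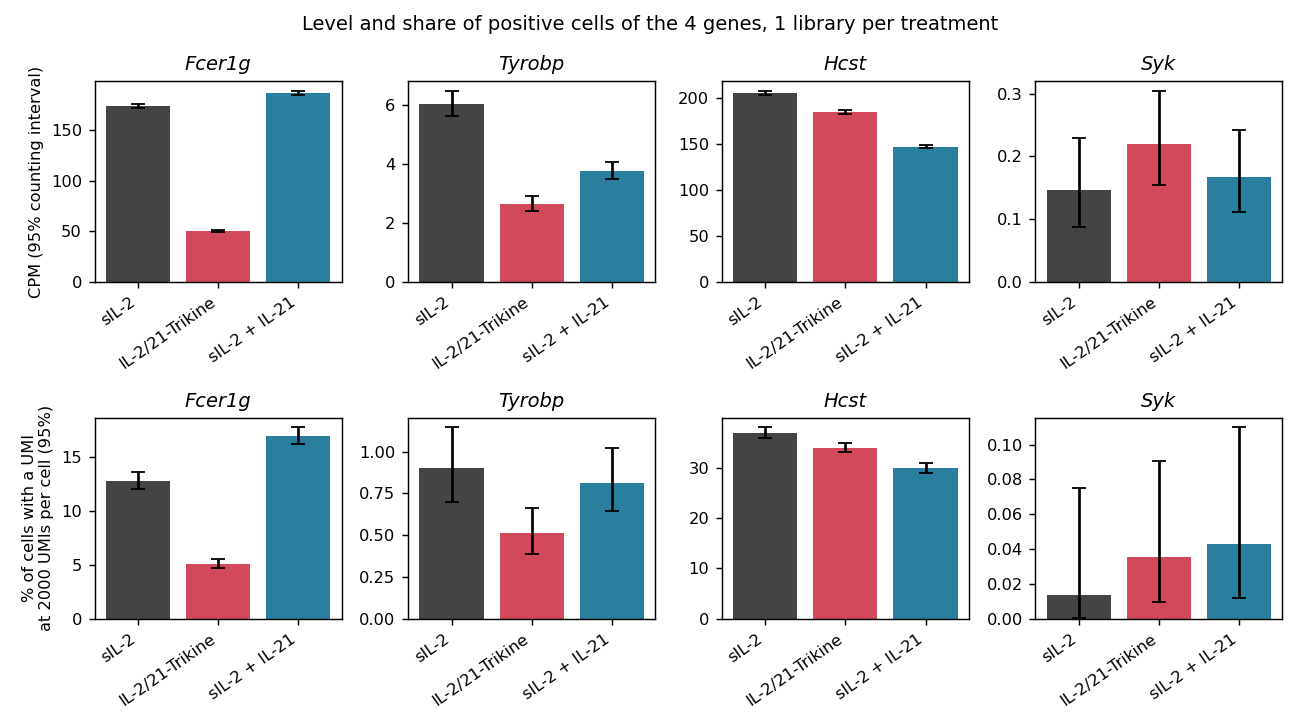
Level (top, CPM) and share of cells with a UMI after thinning to 2000 UMIs per cell (bottom, %) of the 4 genes in the 3 libraries; bars are 1 library each and whiskers are exact 95% counting intervals. Fcer1g stood at 50.1 CPM with IL-2/21-Trikine against 174.0 and 187.0 CPM, while Hcst ranged from 147.1 to 205.8 CPM and the Syk intervals overlapped.

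Fcer1g and Hcst were spread over the cells in contrasting ways. The 10% of cells with most Fcer1g UMIs held 84.3% of them with sIL-2, 96.2% with IL-2/21-Trikine but 72.2% with sIL-2 + IL-21. For Hcst the top 10% held 28.0% with sIL-2 and about 30% in the other libraries. At 2000 UMIs per cell the variance of Fcer1g UMIs was 2.43 to 2.91 times their mean, against 1.12 to 1.19 times for Hcst, where 1 is what random sampling of equal cells gives. Cells with 20 or more Fcer1g UMIs numbered 342, 86 and 449, or 4.55%, 0.72% and 4.76% of the libraries, and the deepest held 189 UMIs.

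Hcst was detected in most cells and differed far less between treatments. Its level was 205.8 CPM (203.3 to 208.2) with sIL-2, 184.7 CPM (182.6 to 186.8) with IL-2/21-Trikine and 147.1 CPM (145.3 to 149.0) with sIL-2 + IL-21. A UMI was seen in 90.5%, 82.1% and 84.0% of cells, and in 36.9%, 34.0% and 29.9% after thinning. The log2 ratio was -0.16 for IL-2/21-Trikine over sIL-2, -0.48 for sIL-2 + IL-21 over sIL-2 and 0.33 for IL-2/21-Trikine over sIL-2 + IL-21. Klrk1, the receptor that DAP10 serves, stood at 567.7, 549.3 and 373.7 CPM, so both genes of the pair were lowest with sIL-2 + IL-21.

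Tyrobp was rare. Its level was 6.04 CPM (5.62 to 6.47) with sIL-2, 2.65 CPM (2.40 to 2.91) with IL-2/21-Trikine and 3.76 CPM (3.47 to 4.07) with sIL-2 + IL-21, and after thinning 0.904%, 0.513% and 0.816% of cells had a UMI. The log2 ratio over sIL-2 was -1.19 (-1.36 to -1.02) with IL-2/21-Trikine and -0.68 (-0.84 to -0.53) with sIL-2 + IL-21. These counts were concentrated, and 1 cell held 15.8% of the Tyrobp UMIs of the sIL-2 + IL-21 library and another 8.70% of those of the sIL-2 library.

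Syk was near absent. The libraries held 19, 36 and 28 Syk UMIs, or 0.147, 0.220 and 0.168 CPM, and the intervals of all 3 ratios included 0 on the log2 scale. Zap70 was counted at 82.4, 56.9 and 51.9 CPM in the same cells.

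The spread of all genes gives the scale of these differences. Of 2963 genes with a mean of at least 50 CPM, 5.26% were lower by a log2 ratio of 0.5 or more in the IL-2/21-Trikine library against sIL-2 and 1.69% were higher. Against sIL-2 + IL-21, 2.43% were lower and 3.0% higher. For sIL-2 + IL-21 over sIL-2, 11.1% were lower and 4.69% higher. In either direction the shares past that size were 6.95%, 5.43% and 15.8% for these comparisons. Of the 3 members above 1 CPM, Fcer1g and Tyrobp passed it downward with IL-2/21-Trikine against each other library, and Tyrobp alone passed it for sIL-2 + IL-21 over sIL-2. The member medians were -1.19, -0.48 and -0.51 for IL-2/21-Trikine over sIL-2, sIL-2 + IL-21 over sIL-2 and IL-2/21-Trikine over sIL-2 + IL-21, beside -0.05, -0.04 and 0.01 for all genes tested. The genes tested had at least 50 CPM, which Tyrobp did not reach, and the first and last member medians are the ratios of Tyrobp itself. Because the members were chosen on these contrasts, nothing is read from these shares. Under median-of-ratios scaling, the higher share of the genes past that size moved from 24.3% to 57.7% for IL-2/21-Trikine against sIL-2 and from 29.7% to 50.1% for sIL-2 + IL-21 over sIL-2, and the members kept their directions.

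Myeloid RNA accompanied Tyrobp and Syk more than it did Fcer1g and Hcst. Among Cd3e-positive cells of the 3 libraries together, Tyrobp stood at 3.81 CPM in the 28735 cells with no Lyz2 UMI, 15.5 CPM in the 133 cells with 1, 99.2 CPM in the 22 cells with 2 and 367 CPM in the 42 cells with 3 or more. Syk went from 0.142 to 3.40, 12.6 and 72.9 CPM over the same steps. Fcer1g was at 134.6, 114.7, 290.3 and 985.6 CPM, in this sum higher only from 2 Lyz2 UMIs on. The libraries differed in this. For 0, 1 and 2 Lyz2 UMIs, Fcer1g was at 174.5, 74.8 and 258.9 CPM with sIL-2 and at 49.3, 92.3 and 329.2 CPM with IL-2/21-Trikine. With sIL-2 + IL-21 it was at 187.1, 172.7 and 148.6 CPM, and the 2 cells with 2 Lyz2 UMIs there held no Tyrobp or Syk UMI. Over the libraries together, Hcst did not move with Lyz2, at 177.0, 176.3, 176.7 and 178.6 CPM. At the limit itself, the 22 cells with 2 Lyz2 UMIs were kept, and the 4 cells with 3, left out, had Fcer1g at 897.5 CPM and Tyrobp at 349.0 CPM.

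**Figure D2:**
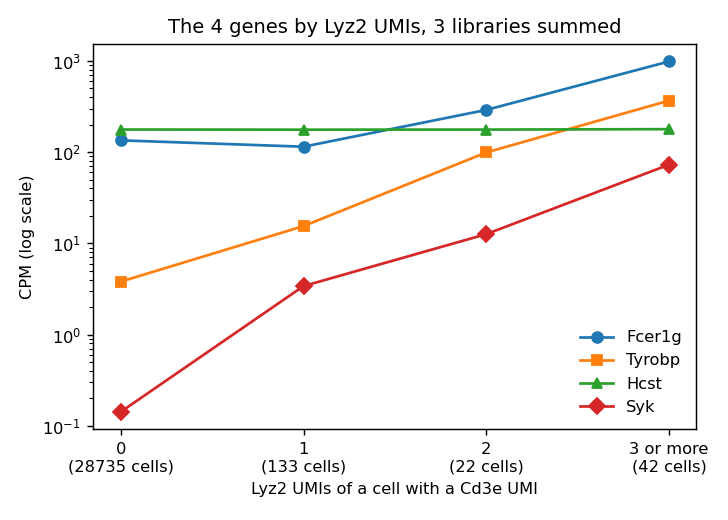
Levels of the 4 genes (CPM, log scale) in Cd3e-positive cells of the 3 libraries summed, by the Lyz2 UMIs of the cell. In this sum Tyrobp and Syk climb at every step, Fcer1g from 2 Lyz2 UMIs on, and Hcst stays between 176.3 and 178.6 CPM, though single libraries differ; the groups with 2 and with 3 or more hold 22 and 42 cells.

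The members' UMIs were also counted per UMI of the 15 myeloid genes. In the 55 cells with 3 or more Lyz2 UMIs, Cd3e-positive or not, there were 0.239 Fcer1g UMIs per myeloid UMI, and in the T cell population there were 27.9. For Hcst the values were 0.0389 and 36.6, and for Tyrobp 0.0949 and 0.829. For Syk they were 0.0173 and 0.0373, and by library they were 0.0222 and 0.0263, 0.0178 and 0.0334, and 0.0116 and 0.0660. By library the Tyrobp values were 0.0924 and 1.08, 0.115 and 0.402, and 0.0580 and 1.48. The myeloid part of each member's RNA was not tested beyond these values.

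Cells rich in myeloid UMIs held more of the Tyrobp signal with IL-2/21-Trikine or sIL-2 + IL-21 than with sIL-2. Cells with at least 3 UMIs of the 15 myeloid genes numbered 20, 25 and 10, and they held 6.52%, 33.5% and 24.8% of Tyrobp UMIs in 0.482%, 0.446% and 0.159% of all UMIs. Without them Tyrobp was at 5.67, 1.77 and 2.83 CPM. The same cells held 1.33%, 3.96% and 0.743% of Fcer1g UMIs, and without them Fcer1g was at 172.5, 48.4 and 185.9 CPM. Fcer1g kept its order of libraries without these cells. Of the few Syk UMIs, 52.6%, 52.8% and 7.14% lay in them.

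Fcer1g-positive T cells held more granzyme C to G RNA than the other cells of their library. Granzymes are serine proteases of cytotoxic granules, and Gzmc, Gzmd, Gzme, Gzmf and Gzmg are neighbors that strongly activated mouse killer cells express. At 2000 UMIs per cell, their summed level was 6983 CPM in the 952 Fcer1g-positive cells and 1482 CPM in the other cells with sIL-2. It was 6198 against 1230 CPM with IL-2/21-Trikine (579 positive cells) and 10070 against 3826 CPM with sIL-2 + IL-21 (1586 positive cells). The log2 ratios were 2.24, 2.33 and 1.40, with a mean of 1.99 ± 0.52 (SD over the 3 libraries), so the direction was the same under all treatments and the ratio was lowest with sIL-2 + IL-21. Positive cells were also deeper before thinning, with medians of 19849.5, 14499 and 17355 UMIs against 12668, 11563.5 and 14149.

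Gzmg, the rarest of Gzmc to Gzmg, had the highest ratios. It was at 97.2 against 6.81 CPM, 53.5 against 1.26 CPM and 118.9 against 12.7 CPM in positive and negative cells. These ratios rest on few cells, since a Gzmg UMI was held by 5.78%, 2.76% and 8.01% of positive cells. With IL-2/21-Trikine there were 62 Gzmg UMIs in positive and 27 in negative cells. Gzmd had log2 ratios of 2.63, 3.49 and 2.18, Gzmf of 2.83, 3.20 and 1.93, and Gzme of 1.98, 3.21 and 1.79. Gzmc, the most widely detected of them, was seen in 69.6%, 73.6% and 89.0% of Fcer1g-positive cells and in 34.5%, 38.3% and 66.2% of negative ones. The log2 ratios of Gzmc were 2.03, 2.13 and 1.14. The other listed granzymes had lower ratios than Gzmc, whereas perforin was close to it. Gzmb had log2 ratios of 0.86, 0.83 and 0.57, Gzma of 1.25, 1.57 and 0.91, and perforin (Prf1) of 1.78, 2.06 and 1.04. Of the 10 granzyme and perforin genes, 8 were higher by 0.5 or more in all 3 libraries, whereas 0.936% of 2990 genes were and 1.47% were lower. The 2990 genes had a mean of at least 50 CPM, which Gzmg, Gzmk and Gzmm did not reach. Because granzyme coexpression was known when the members were chosen, nothing is read from this contrast. The exceptions were Gzmk, at 1.84, 0.88 and 0.37, and Gzmm, at 1.05, -0.05 and 0.30.

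**Figure D3:**
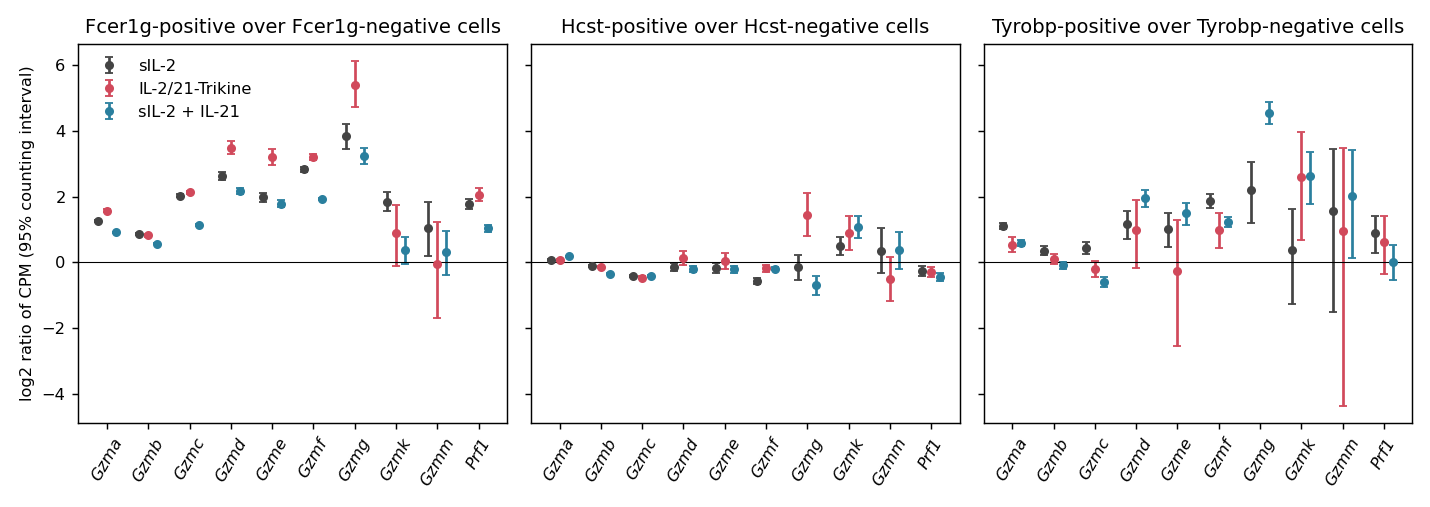
Log2 ratio of CPM between cells with and without a UMI of Fcer1g, Hcst or Tyrobp, for 10 granzyme and perforin genes, at 2000 UMIs per cell; colors are the 3 libraries and whiskers are 95% counting intervals. Ratios beside Fcer1g reach 5.41 for Gzmg (62 and 27 UMIs in positive and negative cells), those beside Hcst are -0.47 to -0.42 for Gzmc but 0.50 to 1.07 for Gzmk, and those beside Tyrobp rest on 58 to 76 positive cells.

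Ranked over all genes by the lowest of the 3 library ratios (5 CPM added to both sides, 4890 genes), Gzmg, Gzmd, Gzmf and Gzme came first for Fcer1g. Next came Cd244a, the 2B4 receptor of NK and activated CD8+ T cells, at 62.5 against 11.6 CPM with sIL-2 and 33.7 against 9.0 CPM with IL-2/21-Trikine and 50.1 against 18.8 CPM with sIL-2 + IL-21. The genes furthest in the other direction were Ccl3, a chemokine, Tcf7, the TCF-1 factor of stem-like T cells, and Ccr7, the homing receptor of naive and central memory T cells. Tcf7 was at 30.5 against 89.8 CPM with sIL-2 and 20.7 against 76.3 CPM with IL-2/21-Trikine and 15.1 against 41.8 CPM with sIL-2 + IL-21. Ccr7 was at 96.1 against 312.4, 214.2 against 483.0 and 110.0 against 316.8 CPM in the same order.

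T cell identity genes differed little between these cells and the rest. Cd3d had log2 ratios of 0.01, -0.06 and 0.05 between Fcer1g-positive and negative cells, Cd8b1 of 0.02, 0.03 and 0.05, and Trac of -0.33, -0.31 and -0.18. Over 10 identity genes without Cd3e the summed level, before thinning, was 16400 against 17170 CPM, 15520 against 16040 CPM and 13990 against 14240 CPM. Receptors shared with NK cells went in both directions. Klre1 was higher, at log2 ratios of 1.12, 1.61 and 0.76, and Klrd1 stood at 0.23, 0.20 and 0.20, whereas Klrk1 was at -0.29, -0.26 and -0.15, Klrc1 at -0.19, -0.02 and -0.16 and Klrc2 at -0.64, -0.15 and -0.43. Ikzf2, the transcription factor Helios, was at 1.09, 0.62 and 0.81. Over all UMIs of the same cells, before thinning, the 4 defining NK genes summed to 16.9, 15.2 and 21.6 CPM in positive cells and 3.22, 3.51 and 5.42 CPM in negative ones, and Ncr1, Klra8 and Klra4 supplied little of it. The 15 myeloid genes, also before thinning, were higher, at 18.7 against 2.83, 52.1 against 3.51 and 4.37 against 2.09 CPM, and at least 14 of them were detected in positive cells of each library. Without every cell that held a UMI of the 15 myeloid genes, the granzyme C to G ratios were 2.20, 2.36 and 1.37.

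Fcer1g scaled with granzymes C to G in every library, and at each step it was lowest with IL-2/21-Trikine. In cells with 0, 1 to 2, 3 to 9, 10 to 29 and 30 or more UMIs of these granzymes at 2000 UMIs, Fcer1g was at 46.9, 59.8, 188.2, 357.1 and 825.0 CPM with sIL-2. With IL-2/21-Trikine it was at 14.5, 23.8, 62.2, 167.4 and 477.0 CPM. With sIL-2 + IL-21 it was at 43.5, 67.3, 125.7, 258.9 and 574.9 CPM. The log2 ratio of IL-2/21-Trikine over sIL-2 was -1.69 (-1.95 to -1.44) in cells without these granzymes and -0.79 (-1.06 to -0.53) in those with 30 or more. Between these ends it was -1.33, -1.60 and -1.09, so it did not narrow at every step. Against sIL-2 + IL-21 the IL-2/21-Trikine ratio went from -1.59 (-1.87 to -1.30) to -0.27 (-0.52 to -0.03).

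The treatments also differed in how many cells were in each step. Cells with 10 or more granzyme C to G UMIs made up 10.0% and 3.78% (10 to 29, and 30 or more) of the sIL-2 library, 8.14% and 1.54% of the IL-2/21-Trikine cells and 24.7% and 8.60% of the sIL-2 + IL-21 cells. Weighting the steps alike in the 3 libraries put Fcer1g at 151.3, 66.8 and 115.8 CPM, from 125.9, 42.3 and 164.0 CPM after thinning alone. The ratio of IL-2/21-Trikine over sIL-2 went from -1.57 to -1.18. That of sIL-2 + IL-21 over sIL-2 changed sign, from 0.38 to -0.39, so its direction depends on whether granzyme content is held equal. With the same weighting, Hcst was at 237.5, 218.9 and 219.6 CPM. Its ratio of IL-2/21-Trikine over sIL-2 + IL-21 went from 0.22 after thinning to -0.005. The Tyrobp ratio of sIL-2 + IL-21 over sIL-2 went from -0.15 to 0.059.

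Depth per cell moved with these steps, from a median of 10991 to 27324.5 UMIs in the sIL-2 library. Within cells of 10000 to 20000 UMIs, Fcer1g was at 52.2, 72.5, 217.1 and 341.2 CPM with sIL-2 for 0, 1 to 2, 3 to 9 and 10 or more granzyme UMIs, at 12.02, 29.1, 80.5 and 229.2 CPM with IL-2/21-Trikine and at 43.3, 70.1, 129.2 and 389.0 CPM with sIL-2 + IL-21. The gradient was present at this matched depth in all 3 libraries.

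**Figure D4:**
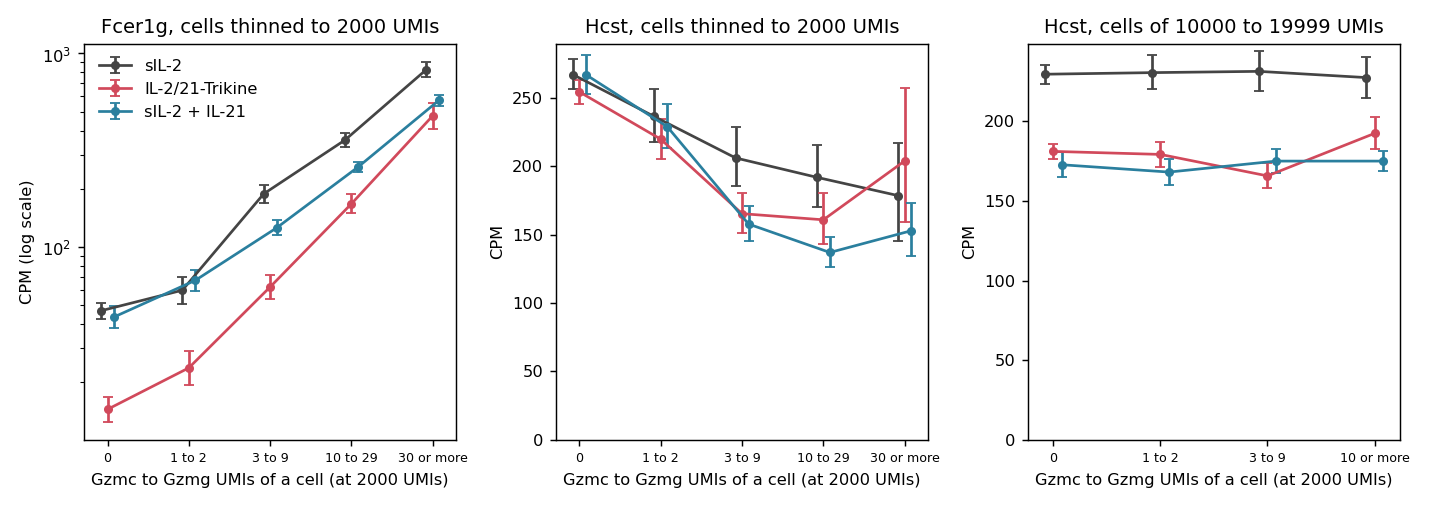
Fcer1g (left, log scale) and Hcst (middle) in cells thinned to 2000 UMIs, and Hcst in unthinned cells of 10000 to 20000 UMIs (right), in CPM with 95% counting intervals, by the Gzmc to Gzmg UMIs of the cell. Fcer1g climbs from 46.9 to 825.0 CPM with sIL-2, and the Hcst decline of the middle panel is not seen at matched depth, where the sIL-2 library stays between 227.6 and 231.5 CPM.

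Hcst-positive cells had fewer granzyme C to G UMIs than negative ones. The log2 ratios of the summed level were -0.41, -0.41 and -0.36, with a mean of -0.39 ± 0.03 (SD over the 3 libraries). Gzmk went the other way, at 0.50, 0.89 and 1.07, and Gzmg was at -0.16, 1.45 and -0.70. Over the granzyme steps Hcst went from 267.2 to 178.6 CPM with sIL-2, from 254.5 to 204.0 CPM with IL-2/21-Trikine and from 267.1 to 152.9 CPM with sIL-2 + IL-21. Shallow cells held the most Hcst per UMI, with 335.3 CPM in cells of 5000 to 10000 UMIs and 140.8 CPM in cells of 40000 or more in the sIL-2 library. Within cells of 10000 to 20000 UMIs, Hcst was at 229.7, 230.7, 231.5 and 227.6 CPM with sIL-2 across the granzyme steps, at 181.2, 179.3, 165.8 and 192.5 CPM with IL-2/21-Trikine and at 172.8, 168.2, 175.1 and 175.1 CPM with sIL-2 + IL-21. At matched depth no decline with granzymes was seen, and the sIL-2 library was the highest at every step.

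The genes ranked nearest to Hcst were Ccl5, a chemokine of effector and memory CD8+ T cells, Prr7, Itga1, an integrin of tissue-resident T cells, Klf2, a factor that keeps T cells in circulation, and Gm30603. With 5 CPM added to both sides, Ccl5 had log2 ratios of 0.58, 0.865 and 1.28, and the others were at 0.45 to 0.79. Ccl5 was at 4142 against 2763 CPM with sIL-2 and 2123 against 1163 CPM with IL-2/21-Trikine and 2818 against 1154 CPM with sIL-2 + IL-21. The genes furthest away belonged to dividing cells, namely the histone genes H1f5 and H3c3 and the kinetochore gene Knl1, with H1f5 at 54.0 against 124.6, 85.3 against 173.5 and 112.8 against 248.7 CPM. Before thinning, Hcst-positive cells were shallower, with medians of 11760, 9504 and 11131 UMIs against 14802, 13110 and 16429 in negative cells. Depth was not matched in this ranking, and its part in the order of genes was not tested. Only 0.0334% of 2990 genes were higher by 0.5 in all 3 libraries in Hcst-positive cells, and 0.936% were lower. Klrk1 and Hcst were found in the same cells 1.03, 1.04 and 1.08 times as often as the product of their shares, and Fcer1g and Hcst 0.995, 1.05 and 1.02 times. The level of Klrk1 was higher in Hcst-positive cells, at log2 ratios of 0.11, 0.22 and 0.36, so values near 1 do not show independence.

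Tyrobp-positive cells did not behave alike. The log2 ratios of granzymes C to G were 0.92, 0.01 and 0.43 on 67, 58 and 76 positive cells, a mean of 0.45 ± 0.46 (SD over the 3 libraries). With sIL-2 + IL-21, fewer Tyrobp-positive than negative cells held any of these granzymes, 53.9% against 73.0%, Gzmc was at -0.59, and 92 Gzmg UMIs lay in 6.58% of the 76 cells. Fcer1g and Tyrobp were found together 2.21, 5.05 and 1.62 times as often as the product of their shares, in 19, 15 and 21 cells. Before thinning, the 15 myeloid genes summed to 269.3, 576.5 and 33.1 CPM in Tyrobp-positive cells, against 3.29, 3.59 and 2.36 CPM in negative ones, and the part of this RNA in the Fcer1g overlap was not tested. The genes ranked nearest to Tyrobp, 1700025G04Rik, Zfp217, Pgs1, Gm57204 and Itga1, rest on these few cells, as do the furthest, Farp1, Mcm7 and Fdx1, and no Syk ranking is described because 1, 4 and 4 cells were positive. Between Tyrobp-positive and negative cells, 0.569% of 2990 genes were higher by 0.5 in all 3 libraries and 1.51% lower. Among the listed genes that were higher by this size, the intervals lay above 0 in all 3 libraries for Gzma and Gzmf only, and those of Inpp5d and Cbl included 0 in each library. These intervals count UMIs and do not measure spread between cells. A Gzmf UMI was held by 17.9%, 10.3% and 23.7% of Tyrobp-positive cells and by 10.1%, 5.51% and 23.6% of negative ones.

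Ranking cells by short gene lists gave higher Fcer1g in cells rich in granzymes C to G, exhaustion genes or metallothioneins, and lower Hcst in cells rich in proliferation genes. In each library, the 20% of cells with the most UMIs of an exhaustion list had Fcer1g at 234.3 against 98.8 CPM in the rest with sIL-2, at 95.1 against 29.1 CPM with IL-2/21-Trikine and at 274.7 against 136.3 CPM with sIL-2 + IL-21. For a memory list the log2 ratios were -1.59, -1.62 and -1.55, and for a cytokine list -1.66, -1.41 and -0.98. The granzyme C to G list gave the highest Fcer1g ratios, 2.77, 3.08 and 2.17. Metallothionein-rich cells had Fcer1g ratios of 1.48, 1.30 and 0.55, hypoxia-list cells of 0.38, 0.71 and 0.16, cells rich in an innate-like list of 0.30, 0.47 and 0.31, and interferon-response cells of -0.77, -0.56 and -0.10. Proliferation did not order Fcer1g in 1 direction, at 0.22, -0.02 and -0.16. With sIL-2, Fcer1g was at 43.2 CPM in cells of 5000 to 10000 UMIs and 247.5 CPM in those of 40000 or more. Memory and interferon cells were shallower before thinning than the rest of every library. Exhaustion, metallothionein, hypoxia and granzyme C to G cells were deeper. Innate-like cells were shallower with higher Fcer1g, and cytokine cells, except with sIL-2 + IL-21, deeper with lower Fcer1g. Depth was not matched in these ratios, and its part in them was not tested. These lists are ranges of a score and not cell types, and many cells tied at the limit, and the interferon limit of the sIL-2 + IL-21 library and the metallothionein limit of the sIL-2 library were at 0 UMIs.

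For Hcst, the proliferation list gave -0.73, -1.09 and -0.97, from 159.8 against 265.2 CPM with sIL-2, 119.9 against 254.5 CPM with IL-2/21-Trikine and 110.5 against 216.4 CPM with sIL-2 + IL-21. Cells rich in proliferation genes were deeper, with a median of 24293 against 12131.5 UMIs with sIL-2, and depth and division cannot be told apart in this ratio. The innate-like list, which holds Klrk1, gave 0.19, 0.39 and 0.74, the memory list 0.21, 0.34 and 0.49, and the interferon list 0.30, 0.58 and 0.46. Cells rich in these lists were shallower than the rest in every library. For memory with sIL-2 + IL-21 the medians were 9907.5 against 16346 UMIs, and depth and list cannot be told apart here either. The exhaustion list did not separate Hcst, at -0.08, -0.001 and -0.11. Proliferation was not the only list with lower Hcst. The metallothionein list gave -0.54, -0.43 and -1.06, the last below the proliferation ratio of that library. The granzyme C to G list gave -0.41, -0.54 and -0.52, the hypoxia list -0.18, -0.17 and -0.54, and the cytokine list -0.28, -0.32 and -0.07.

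**Figure D5:**
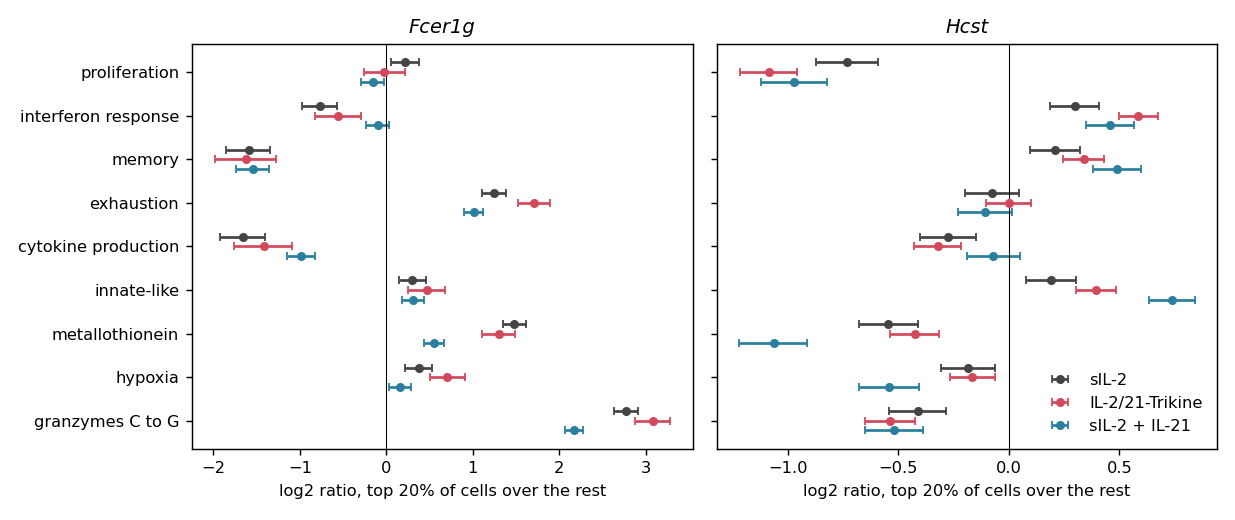
Log2 ratio of Fcer1g (left) and Hcst (right) between the 20% of cells with most UMIs of a gene list and the rest of the library, at 2000 UMIs per cell, with 95% counting intervals; colors are the 3 libraries. Fcer1g is highest beside granzymes C to G (2.17 to 3.08), higher in exhaustion-list cells (1.01 to 1.71) and lower in memory-list cells (-1.62 to -1.55). The groups differ in depth before thinning. Hcst is lower beside proliferation (-1.09 to -0.73) and beside metallothioneins (-1.06 to -0.43).

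Most of the listed receptors of the Fc receptor gamma chain and of DAP12 were below 1 CPM, whereas Klrk1, the partner of DAP10, was well above it. Of 6 receptors that pair with the Fc receptor gamma chain, Fcgr1, Fcgr3, Fcgr4, Fcer1a and Ncr1 were below 1 CPM on average, and Klrb1c (NK1.1) was at 5.37, 4.16 and 8.36 CPM. Klrb1c was higher in Fcer1g-positive cells, at 22.1 against 2.79, 17.3 against 3.59 and 23.6 against 7.37 CPM. Of 7 receptors served by DAP12, Klra4, Klra8, Trem1, Trem2 and Sirpb1a were below 1 CPM, Klrc2 was at 78.2, 74.1 and 52.2 CPM and its partner Klrd1 at 1294, 990.7 and 966.1 CPM. Neither was higher in Tyrobp-positive cells by 0.5 in all 3 libraries.

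The CD3 chains, the ITAM subunits of the T cell receptor, differed little between treatments, with all 4 within log2 ratios of -0.36 and 0.06 over the 3 comparisons. Among 8 proximal kinases, Zap70, Fyn, Lyn and Fgr were lower by 0.5 or more in the IL-2/21-Trikine library against sIL-2, Zap70 and Fyn were lower with sIL-2 + IL-21 than with sIL-2, and Btk was below 1 CPM on average. Of all genes at 50 CPM or more, a level that Lyn and Fgr did not reach, 5.26% and 11.1% were lower in these comparisons. Zap70 was not higher in Fcer1g-positive cells, at log2 ratios of -0.26, -0.36 and -0.14. Lyn, a kinase of B cells and myeloid cells, was the only one of the list higher there by 0.5 in all 3 libraries, at 17.9 against 7.04, 25.0 against 5.50 and 13.6 against 7.24 CPM. Tyrobp-positive cells also had more Lyn, at log2 ratios of 2.47, 2.77 and 0.67, where the last interval included 0. The myeloid part of this Lyn RNA was not tested.

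Lat2 followed Fcer1g among the 13 scaffolds and effectors. It encodes NTAL, a scaffold related to LAT that is phosphorylated downstream of ITAM receptors in mast and NK cells. It was at 46.5, 29.1 and 65.0 CPM by treatment, and at 89.3 against 31.6, 69.1 against 24.9 and 96.8 against 52.9 CPM in Fcer1g-positive and negative cells. Lat itself had ratios of -0.48, -0.31 and -0.14. With IL-2/21-Trikine, Lat2 and Pik3r1 were lower than with sIL-2, and Lat2 and Plcg2 were lower than with sIL-2 + IL-21, while Vav3 and Pik3r1 were among those lower with sIL-2 + IL-21 than with sIL-2.

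Among 10 genes that restrain this signaling, the adaptor Sla2 was higher in Fcer1g-positive cells, at 0.91, 0.59 and 0.54, and its relative Sla was lower, at -0.79, -0.55 and -0.58. Between treatments, Inpp5d, the phosphatase SHIP-1, was lower than with sIL-2 in both other libraries, and Cblb, Ubash3b and Sla were also lower with sIL-2 + IL-21. Of the granzyme and perforin genes, the IL-2/21-Trikine library had 7 of 10 lower against sIL-2 and 9 of 10 lower against sIL-2 + IL-21, where 5.26% and 2.43% of genes at 50 CPM or more were lower, beside the Fcer1g ratios of -1.80 and -1.90. With sIL-2 + IL-21 over sIL-2, Gzmb, Gzmc, Gzmf and Prf1 were higher and Gzmk was lower.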

How the data were processed

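Droplet RNA-seq libraries (10x 3′) were made from 3 sorted T cell samples, 1 per treatment. The deposited values are whole-number UMI counts for every gene in every cell, produced by the authors with Cell Ranger 9.0.0 (intronic reads included) and not normalized. The labels name mm10 and the methods a GRCm39 reference, so positions are given only for GENCODE M21 (GRCm38) transcripts. The members and gene lists were chosen with earlier results of these data known. Cells with 500 to 120000 UMIs and at most 20% mitochondrial UMIs were kept (30857 of 31026). UMIs were summed per library and scaled to CPM. Shares and comparisons of positive with negative cells used cells thinned to 2000 UMIs with a fixed seed (sums over marker lists used all UMIs of those cells), and 98, 651 and 106 shallower cells were left out. Intervals are exact Poisson, binomial or conditional binomial intervals at 95%. Genes were named as the 4 members, the listed pathway and marker genes, and, for each member, the 5 nearest and 3 furthest genes at 20 CPM or more. Doublets were not removed, because Scrublet marked only 9, 0 and 4 cells, and leaving out the 8% with the highest scores was an alternative. Other alternatives covered the Cd3e and myeloid limits, weight of cells, scaling, thinning depth and the 50 CPM minimum. The ratios and intervals were tested on simulated data. The simulated library sums had counting error only, as the intervals assume, so this test says nothing about uneven spread of UMIs between cells. Python 3.11.15, numpy 2.4.6, scipy 1.17.1, pandas 2.3.3, scanpy 1.11.5 and matplotlib 3.10.9 were used. A few listed genes are not reported here.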

Additional observations from a re-analysis of the deposited data

How the results depend on the processing

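Fcer1g, Tyrobp and Hcst kept their direction in all 3 comparisons under each of the 8 alternatives run. Weighting the granzyme steps alike in the libraries, given above, was not among these 8, and it changed the sign of a ratio of each of these genes. Ranges of depth were not among them either, and the Fcer1g ratio of sIL-2 + IL-21 over sIL-2 differed in sign between such ranges. Ratios are given in the order IL-2/21-Trikine over sIL-2, sIL-2 + IL-21 over sIL-2, and IL-2/21-Trikine over sIL-2 + IL-21, where no pair is named. In cells without a UMI of any of the 18 myeloid genes, which leaves shallow cells because Cst3 is common, Fcer1g was at -1.32, 0.70 and -2.02 and Hcst at -0.091, -0.14 and 0.045. In those cells Tyrobp was at -0.14 for sIL-2 + IL-21 over sIL-2 and -1.20 for the last pair, Syk was at -0.91 for the last pair, and the mean granzyme C to G ratio was -0.25 beside Tyrobp and -0.28 beside Hcst. Without Cst3, Cd68 and Itgam in that list, an alternative chosen after seeing the data, Tyrobp was at -1.56 and -0.90 over sIL-2 and Syk at -0.76 for the last pair. Without the 8% of cells with the highest Scrublet scores, Fcer1g was at -1.75, 0.078 and -1.83. With no Cd3e UMI required, Tyrobp was at -0.99 for the first pair. With each cell weighted equally, Fcer1g was at -1.59, 0.42 and -2.01, Tyrobp at -0.48 for the second pair, and Hcst at -0.34 and 0.20 for the second and last. Under median-of-ratios scaling, Fcer1g was at -1.71 and 0.19 over sIL-2 and Hcst at -0.067 and -0.40. With each cell thinned to 2000 UMIs, Fcer1g was at -1.57, 0.38 and -1.96, Tyrobp at -0.15 and -0.89 for the second and last pairs, Hcst at -0.10, -0.32 and 0.22, and Syk at 1.67 for the second. The mean granzyme ratio beside Hcst was -0.26 in cells thinned to 1000 UMIs and -0.34 at 5000. With a minimum of 10 CPM, 597, 1110 and 434 genes passed the log2 ratio of 0.5, against 206, 468 and 161 at 50 CPM. The cause of these shifts was not tested.

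No paired analysis was possible because each treatment had 1 library and the results come from no test, so leaving out a replicate was not run either. The granzyme ratio beside Syk has no value, since the single positive cell of the sIL-2 library held no granzyme C to G UMI after thinning. Depth limits Syk, whose 19 to 36 UMIs per library set the wide intervals, and Tyrobp, whose shares rest on 58 to 76 cells. Intervals cover counting error only.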
